A study of Mus musculus with 1528 samples.

Results

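Type I interferon-stimulated genes were examined in single bone marrow-derived macrophages (BMDMs): *Ifit1*, *Ifit2*, *Ifit3*, *Ifit3b*, *Rsad2*, *Mx1*, *Cmpk2*, *Isg15* and *Oasl2*. These 9 genes were found by symbol and Ensembl identifier among the 55421 genes of the count table, and all 9 were measured and passed the filter on low values. The BMDMs, grown with M-CSF from 2 wild-type C57BL/6 mice, received IL4+IL13 either alone or together with TNF (IL4+IL13+TNF), at 10 ng/ml of every cytokine and for 24 h. After live/dead staining, cells were sorted singly into 384-well plates and profiled by Smart-seq2, a full-length method without molecular identifiers. Plates 2 and 3 held cells of mouse 1 and plates 4 and 5 cells of mouse 2, and every plate held both treatments. No unstimulated or interferon-treated cells were analysed here, so a level could only be compared between the treatments. Of 1524 wells, 1386 were kept, with 357 and 333 IL4+IL13 cells and 347 and 349 IL4+IL13+TNF cells in mouse 1 and mouse 2.

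Type I interferons bind the receptor IFNAR, which activates signalling that includes STAT2. With IRF9 this factor takes part in a complex that binds the interferon-stimulated response element (ISRE) in promoters and switches on antiviral genes. Macrophages are known to keep a low tonic level of this program, and single cells that make or sense interferon can differ widely. The Ifit proteins bind foreign RNA, *Rsad2* encodes viperin, which makes a chain-terminating nucleotide, and *Cmpk2* encodes a mitochondrial nucleotide kinase that is its genomic neighbour. *Isg15* encodes a ubiquitin-like modifier, *Oasl2* an oligoadenylate synthetase-like protein and *Mx1* a dynamin-like GTPase. C57BL/6 mice are known to carry a defective *Mx1* allele.

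The genes lay at 5 loci of the mm10 genome. *Ifit2* (ENSMUSG00000045932, 34550694-34576419), *Ifit3* (ENSMUSG00000074896, 34583531-34588731), *Ifit3b* (ENSMUSG00000062488, 34607970-34613401) and *Ifit1* (ENSMUSG00000034459, 34640871-34650009) followed each other on the plus strand of chromosome 19 within 99.3 kb. *Rsad2* (ENSMUSG00000020641, chromosome 12, 26442746-26456452, minus strand) and *Cmpk2* (ENSMUSG00000020638, chromosome 12, 26469204-26479837, plus strand) stood head to head with 12.8 kb between them. *Mx1* (ENSMUSG00000000386) lay on chromosome 16 at 97447035-97462907, *Isg15* (ENSMUSG00000035692) on chromosome 4 at 156199455-156200796 and *Oasl2* (ENSMUSG00000029561) on chromosome 5 at 114896936-114912234. No other annotated gene overlapped any of the 9. *Ifit3* and *Ifit3b* are near-identical copies, and 51.2% of the 50-base windows of the *Ifit3* transcripts also occurred in *Ifit3b*. Only uniquely mapped fragments had been counted, so the levels of both are uncertain. For *Ifit1* the share of windows that also occurred in another annotated gene was 7.13%, mostly in *Ifit1bl2*. It was 3.96% for *Isg15*, 3.91% for *Mx1*, mostly in *Mx2*, and 0.138% for *Oasl2*. *Ifit2*, *Rsad2* and *Cmpk2* shared no window with another annotated gene. Copies outside annotated transcripts could not be searched.

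Promoter windows (250 bases before to 50 after the start, RefSeq, GRCm38.p6) were found for 8 of the 9 genes, all but *Mx1*. The ISRE core, a GAAA block followed by any 2 bases and another GAAA block, was searched on both strands and was present in 5 of these 8 genes. Over all 32851 promoter windows, 3.44% held it. The stretches of 100 bases around the matches are shown so that the positions and letters of the motif can be compared between the genes. Capitals mark the ISRE matches, and each line reads 5′ to 3′ in the direction of the gene.
Ifit1, chr19:34640749-34640848, plus strand: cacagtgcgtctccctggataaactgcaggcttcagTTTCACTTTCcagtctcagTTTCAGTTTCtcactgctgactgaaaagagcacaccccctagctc
Ifit3, chr19:34583345-34583444, plus strand: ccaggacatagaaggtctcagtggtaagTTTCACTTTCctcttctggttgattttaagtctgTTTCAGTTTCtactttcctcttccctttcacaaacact
Ifit3b, chr19:34607741-34607840, plus strand: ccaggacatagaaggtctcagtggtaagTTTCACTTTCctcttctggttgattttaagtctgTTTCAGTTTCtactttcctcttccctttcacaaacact
Rsad2, chr12:26456518-26456617, minus strand: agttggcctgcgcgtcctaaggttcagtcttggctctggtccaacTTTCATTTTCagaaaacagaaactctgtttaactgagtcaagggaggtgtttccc
Isg15, chr4:156200836-156200935, minus strand: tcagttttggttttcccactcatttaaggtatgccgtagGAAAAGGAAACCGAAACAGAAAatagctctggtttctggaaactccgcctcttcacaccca
*Ifit1*, *Ifit3* and *Ifit3b* each held 2 matches with the same letters, and *Rsad2* held 1. In *Isg15* 3 matches overlapped each other, between 78 and 57 bases upstream of the start. The stretches of *Ifit3* and *Ifit3b* were identical in all 100 bases, while over the whole aligned windows 201 of 268 bases (75%) were. The windows of *Ifit2*, *Cmpk2* and *Oasl2* held no match, although *Ifit2* and *Oasl2* were among the genes most correlated with *Ifit1* across cells (0.40 and 0.32).

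The cells carried macrophage transcripts throughout. *Adgre1*, *Cd68* and *Csf1r* were detected in 1383, 1385 and 1386 of 1386 cells, and the 8 macrophage markers summed to between 15180 and 28500 CPM (fragments of a gene relative to all fragments of the library) in the 4 sums of cells by mouse and treatment. Most of this was *Lyz2*, at 11463 and 12716 CPM without TNF and 24903 and 23586 CPM with it. Fewer cells carried *Fcgr1*, 62.5% without and 33.3% with TNF, and *Mertk*, 32.5% without and 22.6% with TNF. The 7 markers of T, NK and B cells summed to at most 0.264 CPM and the 6 stromal markers to at most 1.94 CPM. Of the 7 plasmacytoid dendritic cell markers, *Siglech* was detected in 23 cells and *Ly6d* in 4. The sum of the 7, 76.9 to 140 CPM, came mostly from *Tcf4*, which 1181 cells carried. *Tcf4* was lower with TNF, at 90.6 and 134.1 CPM without and 56.6 and 63.4 CPM with it. *Cox6a2* of the same list was higher, at 4.74 and 3.65 CPM without and 19.5 and 15.97 CPM with TNF. It was detected in 10.1% of cells without and 25.4% with TNF. The 8 neutrophil and precursor markers summed to 14 and 42.8 CPM under IL4+IL13 and to 42.6 and 87.3 CPM under IL4+IL13+TNF, the 5 mast cell and basophil markers to between 2.52 and 10.3 CPM, and the 6 classical dendritic cell markers to 7.69 and 10.5 CPM without TNF and 32.5 and 217 CPM with it. Single genes made up most of these sums. With TNF, *Csf3r* gave 40.8 and 81.8 CPM of the neutrophil sums, and *Ccr7* 21.4 and 195 CPM of the classical dendritic cell sums. Without TNF, *Flt3* gave most of the classical dendritic cell sums, at 7.21 and 6.68 CPM. *Flt3* stood at 7.53 and 7.17 CPM with TNF and was detected in 1291 of 1386 cells. *Zbtb46* and *Fscn1* were highest in mouse 2 with TNF, at 6.72 and 8.84 CPM. *Xcr1* and *Clec9a* stayed under 1 CPM. The part of these markers in the results below was not tested. The kept cells held between 200235 and 6122892 fragments, with a median of 7851 genes.

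Under IL4+IL13 alone, *Oasl2* was the most abundant of the 9 genes and *Isg15* the least. Per kilobase of exon, the level of *Oasl2* was 47.7 CPM in mouse 1 and 34.7 CPM in mouse 2. *Ifit1* followed with 39.0 and 23.8 CPM per kilobase, and *Ifit3* with 35.6 and 21.6. *Rsad2* reached 24.4 and 18.7, *Ifit2* 19.9 and 22.1 and *Cmpk2* 19.8 and 14.5 CPM per kilobase. In this order the ranges of neighbours overlapped between the mice, except that *Ifit2* lay above *Cmpk2* in both. *Mx1* (4.02 and 5.03), *Ifit3b* (2.41 and 2.85) and *Isg15* (1.85 and 1.63 CPM per kilobase) were lower than all of them and did not overlap each other. With TNF, *Oasl2* (33.0 and 29.9), *Ifit1* (31.8 and 24.8) and *Ifit3* (32.1 and 17 CPM per kilobase) were again the highest on average, with overlapping ranges, and *Isg15* (1.88 and 1.23) the lowest. The level of *Isg15* rested on only 236 and 193 fragments, and no kept cell reached 100 CPM of it. Only uniquely mapped fragments were counted, and how many *Isg15* fragments this left out was not tested.

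With TNF the mean levels of all 9 genes were lower than without it, but none passed the test. A log2 fold change below 0 was found for 8454 of 17034 genes tested. The 9 genes were correlated across cells, so their signs are not 9 separate observations. *Clec4e*, a C-type lectin used here as a check of the TNF response, stood at 19.2 and 21.7 CPM without TNF and 665 and 723 CPM with it. Its log2 fold change was 5.09 (adjusted p = 0.020, edgeR quasi-likelihood test). It was the only 1 of 17034 genes to pass, a background of 0.00587%, with 1380 genes at an unadjusted p under 0.05. With the mouse as a block, 651 genes or 3.82% passed, among them all 8 genes of the TNF check list. None of the 9 interferon-stimulated genes passed with or without the block, and at an unadjusted p under 0.05 there were 0 of 9 without and 2 of 9 with the block, by edgeR, beside 3649 of 17034 genes with the block, while DESeq2 also called 0. Their median log2 fold change was -0.20, beside 0.00 over all genes tested. In sums over cells, fewer cells with a transcript and less transcript per cell cannot be told apart, and the shares of cells are therefore given further on.

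*Cmpk2* showed the largest difference. Its sums were 82.4 and 60.2 CPM under IL4+IL13 and 56.3 and 37.6 CPM under IL4+IL13+TNF. The groups did not overlap, and the level was lower with TNF on all 4 plates. On plate 3 the difference was small, at 83.6 CPM without and 82.3 CPM with TNF. How many of all genes tested were lower on all 4 plates was not counted. The log2 fold change was -0.60 ± 0.29 (SE, 2 mice per treatment, edgeR adjusted p = 0.695), and when the mouse was blocked it was -0.62 ± 0.12 (SE, edgeR adjusted p = 0.061).

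*Oasl2* was the other gene that was lower on all 4 plates. Its sums were 304 and 221 CPM without TNF and 210 and 191 CPM with TNF, again without overlap. The log2 fold change was -0.39 ± 0.21 (SE, edgeR adjusted p = 0.760). *Ifit2* was the third gene without overlap, at 78.3 and 86.9 CPM against 68.0 and 75.5 CPM (log2 fold change -0.20 ± 0.18, SE, edgeR adjusted p = 0.879). This absence of overlap was lost without the deepest cell of each plate and treatment (63.9 and 87.6 against 46.6 and 78.1 CPM) and in the mean CPM per cell (60.8 and 95.5 against 48.6 and 77.7), and on plate 3 *Ifit2* was higher with TNF, by a log2 ratio of 0.36. A level lower in both TNF sums than in both IL4+IL13 sums was found for 17.9% of all genes tested, so 3 of 9 genes is to be read against that share.

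The sums of the other genes overlapped between treatments. *Ifit1* stood at 104 and 63.1 CPM without and 84.4 and 65.8 CPM with TNF, and *Ifit3* at 62.1 and 37.6 against 56.1 and 29.6 CPM. For *Rsad2* the sums were 106 and 81.3 CPM against 118 and 51.8 CPM, and the mice went opposite ways, with log2 ratios of 0.15 in mouse 1 and -0.65 in mouse 2. *Mx1* stood at 15.2 and 19 against 10.4 and 19.4 CPM, and *Ifit3b* at 4.82 and 5.70 against 6.85 and 2.59 CPM. *Isg15* stayed near 1 CPM throughout, at 1.3 and 1.14 CPM without and 1.32 and 0.87 CPM with TNF. Log2 fold changes of these 6 genes lay between -0.22 and -0.14, with adjusted p between 0.954 and 0.983.

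**Figure D1:**
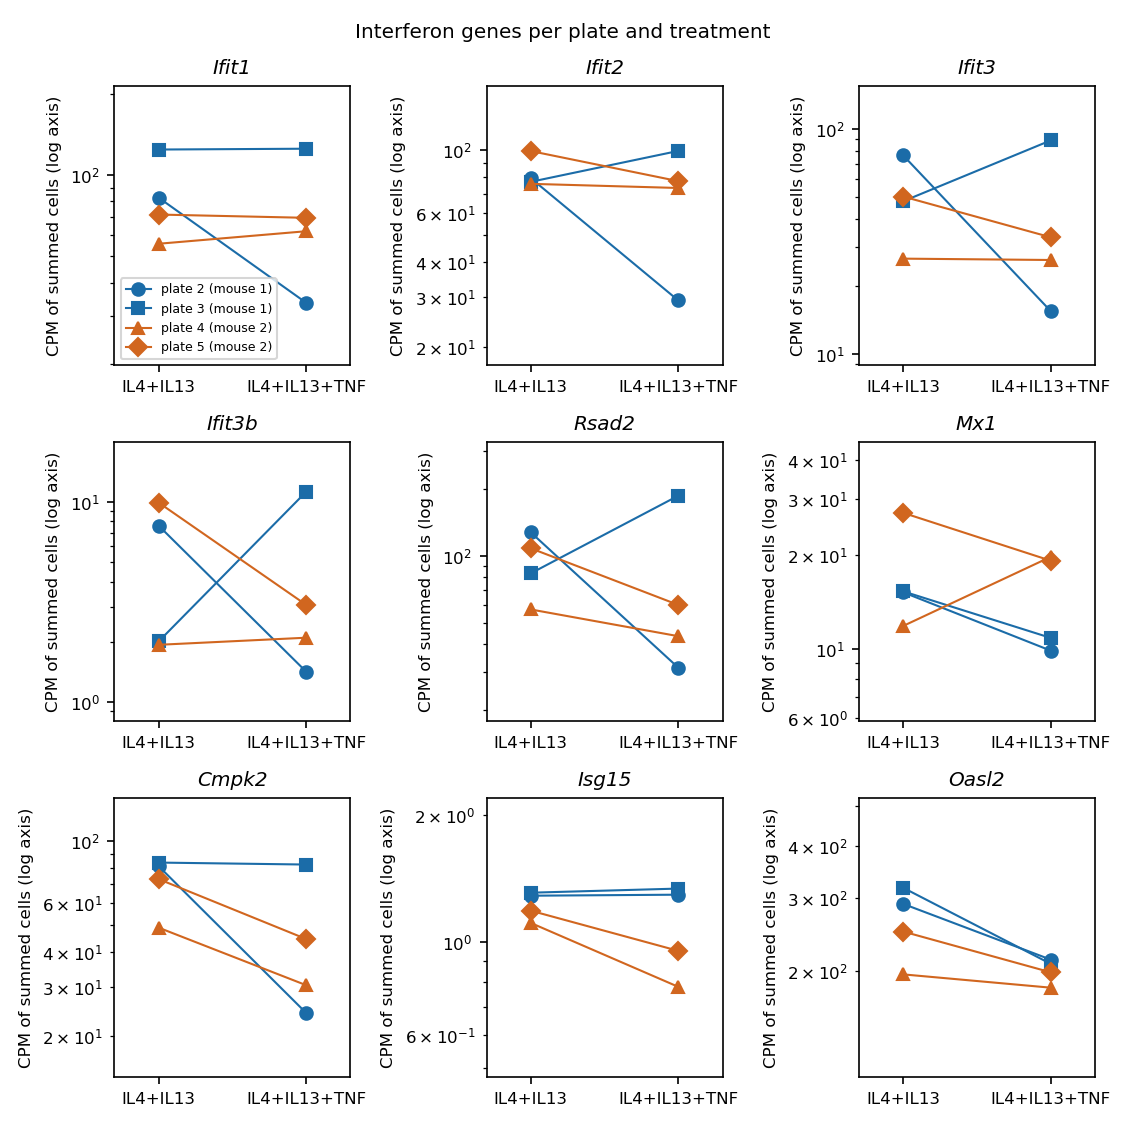
CPM of the summed cells (log axis) of each gene on each plate under IL4+IL13 and IL4+IL13+TNF; a line joins the treatments of 1 plate, blue for mouse 1 and orange for mouse 2. The lines of *Cmpk2* and *Oasl2* all go down, that of *Cmpk2* on plate 3 only slightly. For *Rsad2*, *Ifit3* and *Ifit3b*, plates 2 and 3 of the same mouse go opposite ways.

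The plates of mouse 1 disagreed. On plate 2, *Rsad2* was 128 CPM without and 31.2 CPM with TNF, and on plate 3 it was 83.5 and 187 CPM. *Ifit3* went from 76.4 to 15.6 CPM on plate 2 and from 47.7 to 88.9 CPM on plate 3, and *Ifit3b* from 7.63 to 1.42 and from 2.01 to 11.2 CPM. The log2 ratios of *Rsad2* were thus -2.02 and 1.16 in cells of the same animal, a wider gap than that between the mice. On plates 4 and 5 the log2 ratios of *Rsad2* were -0.40 and -0.85.

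Single cells carried these sums. On plate 3 with TNF, 1 cell with 2673602 fragments made up 2.98% of all fragments of its set of cells, and it gave 60.6% of the *Rsad2* fragments, 55.6% of *Cmpk2*, 53.7% of *Ifit3*, 41.7% of *Ifit2* and 39.9% of *Ifit1*. It held no *Mx1* fragment and gave 3.87% of *Oasl2*. On the same plate without TNF, the cell with 6122892 fragments gave 42.1% of *Ifit1* and of *Cmpk2* and 44.0% of *Ifit2*. Without the deepest cell of each plate and treatment, a choice made after these values were seen, *Rsad2* on plate 3 was 64.1 CPM without and 76.1 CPM with TNF. Its log2 fold change over both mice became -0.69 (edgeR adjusted p = 0.411), that of *Ifit3* -0.68 (adjusted p = 0.623), that of *Ifit3b* -0.52 (adjusted p = 0.843) and that of *Cmpk2* -0.87 (adjusted p = 0.332), and again none of the 9 genes passed.

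When every cell was given the same weight, the differences in *Rsad2*, *Cmpk2* and *Ifit3* were also larger than in the sums. The mean CPM per cell of *Rsad2* was 90.5 and 87.0 without TNF and 65.3 and 56.8 with TNF, and that of *Cmpk2* was 67.3 and 69.7 against 35.2 and 38.1. For *Ifit3* it was 57.5 and 40.7 against 32.8 and 30.7. In these 3 genes the groups did not overlap, nor did they in *Oasl2*, at 311 and 239 against 199 and 191. How many of all genes tested lacked overlap in this measure was not counted. For *Rsad2*, *Cmpk2* and *Ifit3*, limma on log2(mean CPM + 1) gave adjusted p of 0.441, 0.242 and 0.587. *Ifit1* did overlap, at 79.2 and 67.1 against 61.5 and 69.2 mean CPM per cell.

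Most cells had little or none of these transcripts, and a minority had a great deal. Of IL4+IL13 cells, 36.7% of mouse 1 and 44.7% of mouse 2 had no *Rsad2* fragment, 20.7% and 25.8% had some but under 10 CPM, and 21.3% and 16.8% had 100 CPM or more. The highest cell of the 4 sums reached 7216 CPM. The top 5% of cells held 53.8% and 62.1% of the summed CPM without TNF and 81.5% and 66.5% with TNF. *Ifit1*, *Ifit2*, *Ifit3* and *Cmpk2* were spread in the same way, with 36.7% to 66.6% of cells at 0 across these 4 genes and *Rsad2* and between 6.05% and 22.2% at 100 CPM or more.

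*Oasl2* behaved differently from the rest. It was absent from only 1.68% and 6.61% of IL4+IL13 cells and from 3.75% and 6.88% of IL4+IL13+TNF cells, its median per cell was 253 and 160 CPM without and 151 and 142 CPM with TNF, and the top 5% of cells held between 16.7% and 20.1% of its CPM. *Mx1* was at the other end, with no fragment in 73.1% to 84.4% of cells, while its top 5% of cells held 65.6% to 87.2%. *Isg15* was detected in 17.7% to 26.1% of cells, nearly always under 10 CPM.

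**Figure D2:**
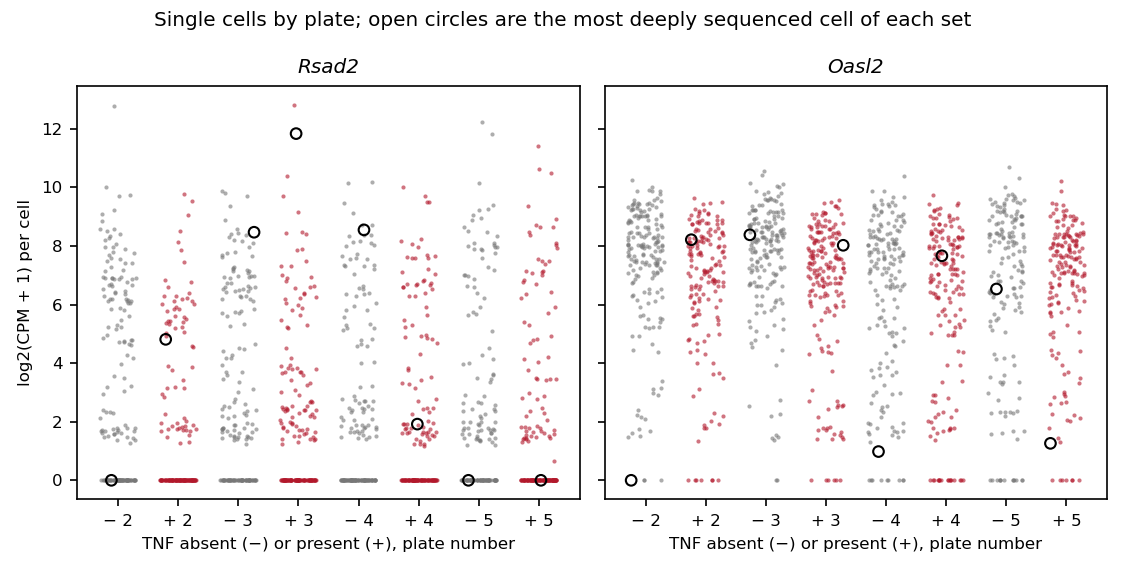
Each point is 1 kept cell, placed by its log2(CPM + 1) of *Rsad2* or *Oasl2*; columns are plates without (grey) and with (red) TNF, and open circles are the deepest cell of each set. *Rsad2* cells lie at 0, in a low band of few fragments and in a wide high band, whereas most *Oasl2* cells lie in 1 high band.

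Bimodality was summarised with Sarle's coefficient of log2(CPM + 1), for which a flat distribution gives 5/9 and larger values point to separate modes or strong skew. In the 4 sums it lay between 0.67 and 0.77 for *Rsad2*, 0.71 and 0.79 for *Ifit1*, 0.72 and 0.81 for *Cmpk2* and 0.88 and 0.89 for *Mx1*. It was 0.64 to 0.70 for *Oasl2*, where the low mode was the small one. The coefficient does not separate a second mode from the many zeros, so the shares of cells above are the plainer description.

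**Figure D3:**
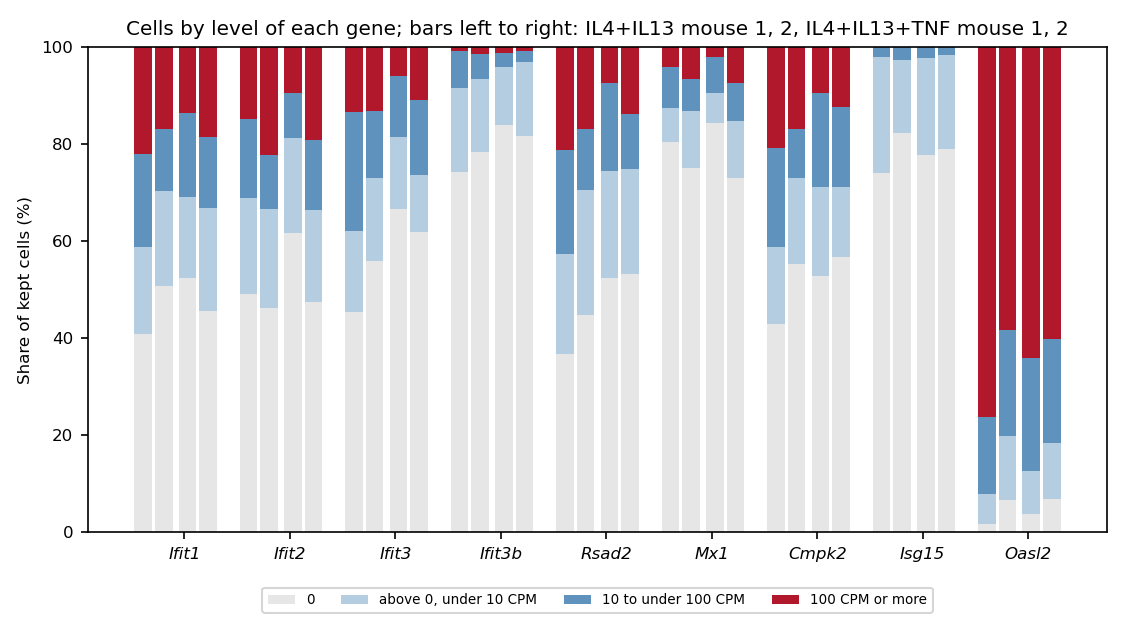
Share of kept cells (%) with 0, under 10, 10 to under 100 and 100 CPM or more of each gene; the bars of a gene are, from the left, IL4+IL13 of mouse 1 and 2 and IL4+IL13+TNF of mouse 1 and 2. *Oasl2* reached 100 CPM in 58.3% to 76.2% of cells, *Rsad2* in 7.49% to 21.3% and *Isg15* in none.

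The share of cells with a transcript was lower in both TNF sums than in both IL4+IL13 sums for 3 of 9 genes, *Rsad2*, *Ifit3* and *Ifit3b*. This was seen for 11.6% of all genes tested. *Ifit2*, *Cmpk2* and *Oasl2* were lower within each mouse but overlapped across mice, and how many of all genes did so was not counted. *Ifit2* went from 51.0% and 53.8% to 38.3% and 52.4%, and *Cmpk2* from 57.1% and 44.7% to 47.3% and 43.3%. *Oasl2* went from 98.3% and 93.4% to 96.3% and 93.1%, so in mouse 2 these genes were nearly level. *Rsad2* was detected in 63.3% (95% Clopper-Pearson interval 58.1 to 68.3) and 55.3% (49.7 to 60.7) of IL4+IL13 cells and in 47.6% (42.2 to 52.9) and 46.7% (41.4 to 52.1) of IL4+IL13+TNF cells. *Ifit3* was detected in 54.6% and 44.1% against 33.4% and 38.1%, and *Ifit3b* in 25.8% and 21.6% against 16.1% and 18.3%. After thinning each cell to 339000 fragments the shares of *Rsad2* were 58.1% and 52.4% against 44.9% and 39.2%, and those of *Ifit3* 51.2% and 39.8% against 31.0% and 35.3%. Thinning left out 25 and 24 shallower IL4+IL13 cells and 44 and 43 IL4+IL13+TNF cells. Intervals cover counting error only. With 2 mice per treatment, no exact two-sided permutation p below 0.333 was possible.

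The genes tended to be high in the same cells, with partial overlap. Rank correlations were computed for the 36 pairs of genes within each of the 8 sets of cells of 1 plate and treatment, and all 36 were positive in all 8 sets, from 0.01 to 0.71. How many pairs of other genes were positive in all 8 sets was not counted. The mean over pairs and sets was 0.26, and on plates 2 to 5 it was 0.31, 0.24, 0.20 and 0.28 without TNF and 0.27, 0.27, 0.23 and 0.27 with TNF, so the treatments overlapped. *Ifit3* and *Ifit3b*, whose fragments are hard to assign, gave 0.60. The next were *Ifit1* with *Ifit2* (0.40), *Ifit2* with *Ifit3* (0.38), *Ifit1* with *Ifit3* (0.36) and, from different chromosomes, *Ifit1* with *Rsad2* (0.34). The head-to-head pair of *Rsad2* and *Cmpk2* reached 0.31, about the level of *Ifit1* with *Cmpk2* (0.31) across chromosomes. The 7 pairs within a locus averaged 0.38 and the 29 pairs across loci 0.23. *Mx1* and *Isg15*, the genes with the fewest positive cells besides *Ifit3b*, had the lowest value, 0.14. Cells of a set share their plate and depth range, so these are descriptions.

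**Figure D4:**
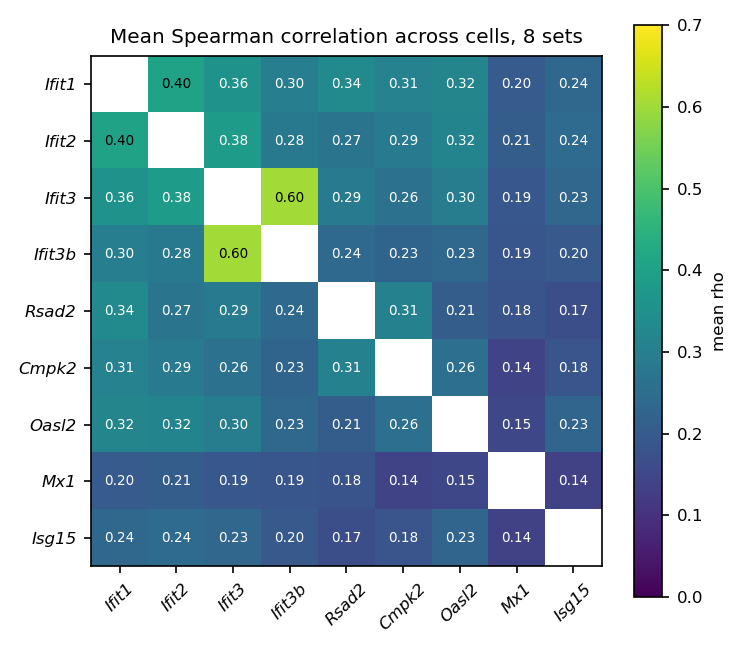
Mean Spearman correlation of log2(CPM + 1) across cells for each pair of genes, averaged over the 8 sets of 1 plate and treatment. Values run from 0.14 (*Mx1* with *Isg15*) to 0.60 (*Ifit3* with *Ifit3b*), and the block of *Ifit* genes at the upper left is the brightest.

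Joint detection showed the same. Of 250 IL4+IL13 cells with at least 10 CPM of *Rsad2*, 58.4% also had at least 10 CPM of *Ifit1*, compared with 22.7% of the remaining cells. With TNF the shares were 57.1% of 177 cells and 23.5% of the rest. *Ifit2* stood at 10 CPM or more in 55.6% of the 225 IL4+IL13 cells that had *Ifit3* and in 20.9% of the rest, and with TNF in 59.0% of 156 cells and 16.7% of the rest. Other pairs were further apart between treatments. *Rsad2* stood at 10 CPM or more in 59.4% of *Ifit1* cells without and 45.3% with TNF, beside 23.4% and 16.1% of the rest. Among *Ifit3* cells it did so in 56.9% and 48.7%, beside 26.2% and 18.7% of the rest. Of *Rsad2* cells, 51.2% without and 42.9% with TNF had *Ifit3*, beside 22.045% and 15.414% of the rest. For these pairs the shares in the rest were thus also lower with TNF. The difference between treatments in these shares was not tested.

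A cell was counted as interferon-high when at least 5 of the 9 genes reached 10 CPM. This is a range of a count and not a cell type, and 64 IL4+IL13 and 62 IL4+IL13+TNF cells had 4 genes, just under the limit, and 68 and 33 cells had 5, just above it. Interferon-high cells were 91 of 357 (25.5%, 21 to 30.3) and 57 of 333 (17.1%, 13.2 to 21.6) under IL4+IL13. Under IL4+IL13+TNF they were 34 of 347 (9.80%, 6.88 to 13.4) and 52 of 349 (14.9%, 11.3 to 19.1). The mice thus differed in size, with 15.7 percentage points fewer in mouse 1 and 2.22 fewer in mouse 2. By plate the share was 28.2% and 9.15% on plate 2, 22.7% and 10.4% on plate 3, 14.5% and 13.9% on plate 4 and 20% and 15.9% on plate 5, without and with TNF. It was lower with TNF on all 4 plates, and the 95% intervals were apart on plates 2 and 3 and overlapped widely on plates 4 and 5. The mean difference was -8.95 percentage points (SD 9.53 over 2 mice), so it was smaller than the spread between the mice. Cells with all 9 genes were rare, 2 in each treatment.

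**Figure D5:**
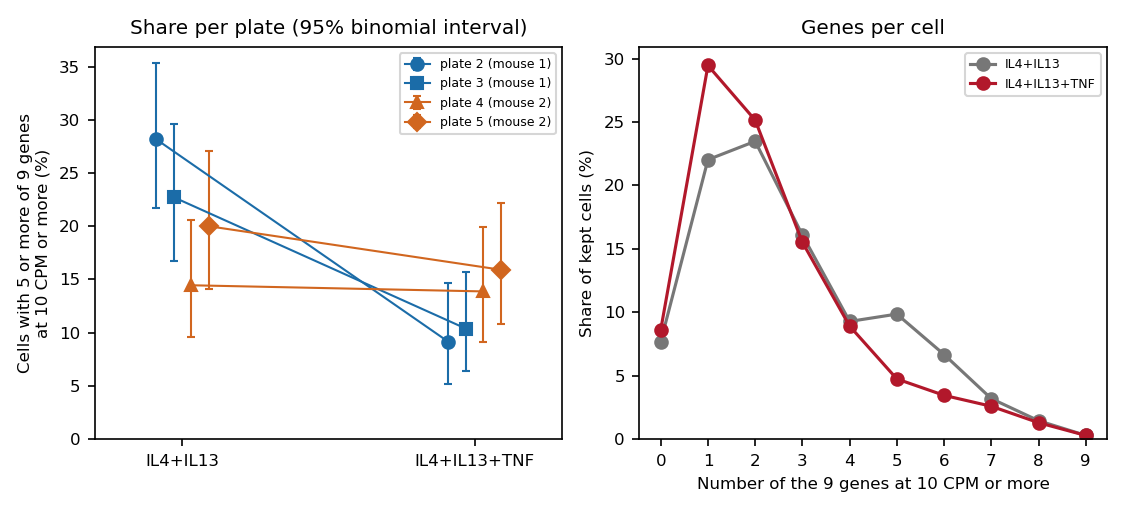
Left, share of kept cells (%) with at least 5 of the 9 genes at 10 CPM or more on each plate, with 95% binomial intervals; right, share of cells by the number of genes at 10 CPM or more. The blue lines of mouse 1 drop from 28.2% and 22.7% to 9.15% and 10.4%, and the orange lines of mouse 2 go from 14.5% and 20% to 13.9% and 15.9%.

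Interferon-high cells held most of the transcripts of *Ifit1*, *Ifit2*, *Ifit3*, *Ifit3b*, *Rsad2* and *Cmpk2*. In mouse 1 under IL4+IL13, 25.5% of cells held 83.0% of the summed *Ifit2* CPM, 77.3% of *Ifit3* and 72.6% of *Rsad2*, and with TNF 9.80% of cells held 80.9%, 80.3% and 77.2%. *Oasl2* had the lowest shares in these cells, 37.3% and 30.8% without and 21.4% and 27.0% with TNF. With TNF, *Isg15* (40.2% and 40.6%) and, in mouse 2, *Mx1* (45.4%) also had the smaller part of their CPM there. Since the cells were chosen by these genes, the shares are a description. The median depth of interferon-high cells was 480020 fragments in mouse 1 under IL4+IL13 against 479120 in the other cells, and 443153 against 480000.5 in mouse 2. With TNF it was 477587.5 against 444154 and 483297 against 492955. Within sets, the rank correlation of the mean log2(CPM + 1) of the 9 genes with total fragments lay between -0.15 and 0.13, that with the number of genes detected between -0.04 and 0.22, that with the share of spike-in fragments between -0.17 and 0.07, that with the share of mitochondrial fragments between -0.16 and 0.06, and that with the mean of the other wells in the same row or column between -0.25 and 0.04.

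Genes outside the 9 tended to follow the same cells. Among 17026 genes, the 10 whose rank correlation with the mean of the 9 genes was highest, averaged over the 8 sets, were *Rtp4* (0.57), *Ifi47* (0.45), *Ifi205* (0.45), *Rnf213* (0.45), *Trim30a* (0.45), *Ifi211* (0.45), *Ifi204* (0.43), *Xaf1* (0.41), *Mndal* (0.41) and *Ddx58* (0.41). The median over all genes was 0.01, and 84 genes or 0.493% reached 0.2. *Rtp4* encodes a receptor-transporting protein with antiviral activity, *Ifi47* an immunity-related GTPase and *Ddx58* the RNA sensor RIG-I, and *Ifi204*, *Ifi205*, *Ifi211* and *Mndal* belong to the DNA-binding PYHIN family on chromosome 1. Promoter windows were found for 8 of the 10 genes, and 5 of those held the ISRE core.

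The other interferon lists moved with the same cells to different degrees. Of 45 further interferon-stimulated genes detected, 29 reached a correlation of 0.2, and of 12 interferon-gamma-linked genes 7 did. The transducer *Stat2* (0.38) and the factor *Irf7* (0.39), itself interferon-induced, stood out from lists whose medians were 0.05. None of the 8 genes of the TNF check list reached 0.2, the highest being 0.09. The guanylate-binding and immunity-related GTPases crossed the program in part: *Irgm1* (0.40), *Igtp* (0.34) and *Gbp7* (0.29) followed the cells, while *Iigp1* (0.15) and *Gbp2* (0.10) stayed under 0.2.

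Transcripts of the interferons themselves were close to absent. Of 21 interferon genes, 12 had no fragment in any kept cell, *Ifnb1* was detected in 3 cells, and leaving out *Ifnk*, 23 of 1386 cells had any interferon fragment. Of 234 interferon-high cells, 3 did. *Ifnk*, interferon kappa, was detected in 7 of 690 IL4+IL13 cells and 24 of 696 IL4+IL13+TNF cells, with sums of 0.028 and 0.166 CPM without and 1.06 and 0.861 CPM with TNF, too few cells to be tested.

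Of the receptors and STAT signalling genes, 11 of 12 were tested and 0 passed in either direction. *Jak2*, a kinase of the interferon-gamma receptor, had 26.7 and 47.1 CPM without TNF and 47.0 and 106 CPM with TNF (log2 fold change 1.05, edgeR adjusted p = 0.681), and it passed when the mouse was blocked (adjusted p = 0.029). *Ifngr2* (0.59) and *Ifnar1* (0.50), subunits of the interferon-gamma and type I receptors, were next in log2 fold change, and *Stat2* (-0.38), *Il10rb* (-0.24) and *Irf9* (-0.21) were the lowest. The list's median was 0.24. Of the interferon regulatory factors 7 of 8 were tested and 0 passed, from *Irf5* (0.54), *Irf1* (0.38) and *Irf3* (0.17) to *Irf7* (0.05), *Irf2* (-0.13) and *Irf4* (-0.63), with a median of 0.09.

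Of the nucleic acid sensing genes 13 of 14 were tested and 0 passed, with a median log2 fold change of 0.02. *Ikbke*, a kinase upstream of interferon induction, had the highest value (1.23, edgeR adjusted p = 0.450), at 32.6 and 62.9 CPM without and 104 and 119 CPM with TNF, and it passed with the block (adjusted p = 0.036). *Cgas* (0.27) and *Zbp1* (0.25) followed. *Tlr7*, the endosomal RNA sensor, had the lowest value (-0.76, adjusted p = 0.359), at 122 and 141 against 81.6 and 73.1 CPM, and *Ifi204* (-0.67) and *Mavs* (-0.48) were next.

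Of 48 further interferon-stimulated genes 45 were tested and 0 passed, with a median of -0.18. Of these 45 genes, 31 had a value below 0, beside 8454 of 17034 genes tested. *Ms4a4c*, a membrane-spanning protein gene, stood at 22.8 and 52.5 CPM without and 8.13 and 14.7 CPM with TNF (-1.72, edgeR adjusted p = 0.480). *Ifi203*, another PYHIN gene, had a log2 fold change of -0.82 (adjusted p = 0.418). With the block, *Ms4a4c* (adjusted p = 0.014), *Ifi203* (0.028) and *Sp100* (0.049), a nuclear body gene, were called lower, 3 of 45. *Oas1c* (-0.91) was also among the lowest, and *Slfn1* (0.66), *Tor3a* (0.55) and *Bst2* (0.48), which encodes tetherin, were the highest. Of the ISG15 conjugation and brake genes 8 of 9 were tested and 0 passed, from *Socs3* (0.76), *Usp18* (0.25) and *Samhd1* (0.24) to *Herc6* (-0.07), *Socs1* (-0.12) and *Uba7* (-0.12), with a median of 0.03.

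Of the interferon-gamma-linked genes 12 of 15 were tested and 0 passed, although *Gbp2*, *Cd274* and *Gbp3* were called higher with the block. *Gbp2*, a guanylate-binding GTPase, stood at 24.9 and 40.5 CPM without TNF and at 88.6 and 175 CPM with it (log2 fold change 2.01, edgeR adjusted p = 0.314, with the block 0.007). *Cd274*, which encodes PD-L1, stood at 27.3 and 40.2 against 88.3 and 106 CPM (1.52, adjusted p = 0.236, with the block 0.011), and *Gbp3* at 0.85 in log2 fold change (adjusted p = 0.625, with the block 0.045). *Irgm1* (-0.51), *Iigp1* (-0.56) and *Igtp* (-0.18) had the lowest values, so this list held values of both signs around a median of 0.02.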

How the data were processed

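Single-cell Smart-seq2 counts of 1524 wells with a treatment and mouse number were used. The authors aligned fragments to mm10 with gsnap, counted uniquely mapped fragments per Ensembl 98 gene with featureCounts 1.6.3 and deposited raw counts; submitters' notes also name bcl2fastq 2.19.1 and Seurat 3. The 92 spike-in rows were set aside and 8 columns of no labelled sample were not used. Wells were left out when more than 3 median absolute deviations below their plate's median in log fragments or log genes. The same distance above the median in mitochondrial or spike-in share also excluded a well (1386 kept). No upper limit was set on fragments, so the deepest cells stayed in. Kept cells were added up by mouse and treatment, and these sums were tested with edgeR 4.0.16 (TMM, quasi-likelihood, Benjamini-Hochberg, 0.05) in R 4.3.3 over 17034 genes found in at least 5% of cells of a treatment. Same-numbered sums came from the same animal and shared plates (r = 0.568 of their deviations over 17034 genes), so the mouse as a block was an alternative, as were DESeq2 1.42.0, limma 3.58.1, cell filters and thinning to 339000 fragments in 1250 cells. Labels pair a mouse number with a plate. Without the block, p-values set the treatment difference against the spread between 2 mice, shared plates included. With the block, they set it against how far that difference varied between the 2 mice. CPM of the sums use TMM; log2 ratios by mouse and plate add 0.5 CPM. Correlations used Spearman's rho within a plate and treatment. The fit was tested on simulated data. The 9 genes and all lists were chosen with earlier results of these data known. Named list genes are the 3 highest and 3 lowest log2 fold changes per interferon list, and those past the threshold; the genes most alike are the 10 with the highest mean correlation. Fragments lack molecular identifiers, so intervals cover counting error only. Results of 1 listed gene are not reported here.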

Additional observations from a re-analysis of the deposited data

Results flagged for a closer look

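By Dixon's test over the 4 plates of a treatment, the gap of 1 plate to its nearest neighbour, as a part of the range, passed the 95% critical value in 2 of 18 sets of 4. *Ifit2* under IL4+IL13 had a ratio of 0.848, with plate 5 at 99.2 CPM and the other plates between 75.9 and 79.4 CPM. *Ifit3b* under IL4+IL13+TNF had a ratio of 0.833, with plate 3 at 11.2 CPM and the others between 1.42 and 3.07 CPM, and 36.1% of its fragments on that plate came from the cell with 2673602 fragments. Chance flags about 1 in 20 such sets.

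Of 3 wells whose labels give no mouse number, the well of plate 4 was above the IL4+IL13 sum of its plate for 5 genes. It held 155 CPM of *Ifit1*, 208.5 CPM of *Ifit2*, 115.5 CPM of *Rsad2*, 33.8 CPM of *Mx1* and 129.6 CPM of *Cmpk2*, where the plate's IL4+IL13 cells summed to 55.7, 75.9, 57.3, 11.8 and 48.9 CPM. It had 354874 fragments. In the wells of plates 3 and 5 no gene was above the sum of its plate.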

How the results depend on the processing

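None of the 9 genes was called under any of the alternatives. The number of all genes called was 1, and it was 651 with the mouse as a replicate block (331 higher), 598 with DESeq2, 2 with thinned cells, 5 without plate 2 and 2 without plate 5. Leaving out 1 of the 4 sums, with the lone sum assumed to vary like the other group, gave 4 to 30 genes. In the blocked fit 3 of 45 further interferon-stimulated genes and 3 of 12 interferon-gamma-linked genes were called, as given above, and the block also called *Jak2*, *Ikbke*, the TNF check genes and the markers *Tcf4* (adjusted p = 0.040, against 0.434), *Ccr7* (0.0056, against 0.241) and *Csf3r* (0.029, against 0.740). Further markers called by the blocked edgeR fit were *Cox6a2* (adjusted p = 0.014, against 0.186) and *Lyz2* (0.0074, against 0.135), both higher with TNF. *Fcgr1* (0.0080, against 0.135) and *Mertk* (0.032, against 0.679) were called lower by it. The block changed no other call among the named genes of the lists. Among the named genes of the interferon lists, DESeq2 called *Tlr7*, *Ikbke*, *Ms4a4c*, *Gbp2* and *Cd274*. *Cmpk2* and *Oasl2* kept their sign in every alternative run. Without plate 2 the log2 fold changes were 0.036 for *Ifit1*, 0.10 for *Ifit2*, 0.48 for *Ifit3*, 0.84 for *Ifit3b* and 0.54 for *Rsad2*, and *Socs1* (0.18), *Herc6* (0.012) and *Igtp* (0.038) also changed sign. Without plate 3 they kept their sign, with -1.34 for *Rsad2* and -1.73 for *Ifit3b*. Without plate 4 *Irf2* was 0.069 and *Uba7* 0.0012, and without plate 5 *Ifit3b* was 0.40, *Mx1* 0.16 and *Herc6* 0.075. *Irf7* was -0.045 with library sizes and -0.014 with mean CPM per cell, and *Slfn1* -0.055 in thinned cells. Leaving out 1 sum at a time gave ranges of -0.46 to 0.25 for *Ifit1*, -0.75 to 0.18 for *Ifit3*, -1.02 to 0.38 for *Ifit3b*, -0.85 to 0.33 for *Rsad2*, -0.72 to 0.18 for *Mx1* and -0.49 to 0.11 for *Isg15*. For the listed genes these ranges were -0.53 to 0.32 for *Socs1*, -0.50 to 0.089 for *Igtp*, -1.09 to 0.017 for *Irf4*, -0.58 to 0.45 for *Irf2*, -0.19 to 0.33 for *Irf7*, -0.17 to 0.042 for *Herc6*, -0.18 to 0.89 for *Usp18* and -0.34 to 0.86 for *Irf1*. The cause was not tested. The mean rank correlation of gene pairs was 0.30 with Pearson's r in place of 0.26, and 0.25 to 0.28 under the other alternatives. The change in the share of interferon-high cells was negative under every alternative run, from -0.74 points with at least 7 of 9 genes to -15.7 in mouse 1 alone. Only 2 mice per treatment were available, and *Isg15* rested on 152 to 236 fragments per sum.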
